A study of Mus musculus with 24 samples.

Results

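Angiopoietin, Tie and apelin signalling was followed through 7 mouse genes: the ligands Angpt1, Angpt2 and Apln, the receptors Tek, Tie1 and Aplnr, and Esm1, a proteoglycan that endothelial tip cells secrete. The members were all probe sets that the platform annotation assigned to these symbols. They made up 7 of 12393 genes with a probe set of their own, and 8 of the 22690 probe sets of the table, 1 for each gene and a second one for Aplnr. The samples were retinas of C57Bl/6 mouse pups, with total RNA from each sample hybridised to 1 of 24 oligonucleotide arrays. There were 8 groups of 3 arrays. Retinas of pups kept in room air came from postnatal days 7, 8, 10 and 12. Their counterparts of equal age had spent 12, 24, 72 and 120 hours in hyperoxia, respectively. No genotype other than the strain is given, so exposure and age were the only labelled differences. Age and length of exposure changed together in hyperoxia and cannot be told apart. The labels used here state neither the oxygen concentration nor whether the 3 arrays of a group came from separate animals, so a p-value here reflects only how far these arrays spread, and that spread may be technical.

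Angiopoietins are secreted ligands of the endothelial receptor tyrosine kinase Tek, also called Tie2. Angpt1, made largely by cells around the vessel, activates Tek and keeps vessels quiescent, whereas Angpt2, made by endothelial cells and some neurons, acts as a partial agonist or an antagonist and accompanies vessel remodelling. Tie1 binds no angiopoietin on its own and modulates Tek signalling. Aplnr is a G protein-coupled receptor on endothelial cells, abundant in growing veins and capillaries, and its peptide ligand Apln is made by tip cells, by other cells and in response to hypoxia. In the mouse retina the superficial vessels spread during the first postnatal week and deeper layers follow, and raised oxygen at this age interrupts that growth.

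The promoters of 3 members, both Tie receptors and the ligand Apln, are shown because endothelial genes are often bound by ETS factors and oxygen-responsive genes by hypoxia-inducible factor (HIF). The sequences are the 250 bases upstream of the transcription start in RefSeq (GRCm38.p6), 5′ to 3′ on the gene's strand, and capitals mark the ETS core GGAA or its reverse complement TTCC. Tek lies on the plus strand, and Tie1 and Apln lie on the minus strand.
Tek, chr4:94739039-94739288: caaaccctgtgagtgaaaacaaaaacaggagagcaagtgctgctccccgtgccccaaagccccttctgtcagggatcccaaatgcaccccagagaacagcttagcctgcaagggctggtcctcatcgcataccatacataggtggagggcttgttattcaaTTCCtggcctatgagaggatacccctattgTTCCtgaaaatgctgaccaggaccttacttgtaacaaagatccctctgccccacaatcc
Tie1, chr4:118489850-118490099: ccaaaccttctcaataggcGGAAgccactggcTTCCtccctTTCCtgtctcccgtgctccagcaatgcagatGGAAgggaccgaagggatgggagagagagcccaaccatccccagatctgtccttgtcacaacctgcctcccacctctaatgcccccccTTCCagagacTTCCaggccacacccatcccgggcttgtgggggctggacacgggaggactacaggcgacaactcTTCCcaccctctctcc
Apln, chrX:48034854-48035103: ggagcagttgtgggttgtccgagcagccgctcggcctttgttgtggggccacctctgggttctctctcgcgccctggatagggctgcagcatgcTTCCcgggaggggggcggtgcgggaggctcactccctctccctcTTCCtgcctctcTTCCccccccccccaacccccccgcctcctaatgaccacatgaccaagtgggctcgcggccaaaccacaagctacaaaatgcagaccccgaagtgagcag
The ETS core, searched on both strands, matched 2 times upstream of Tek, 7 times upstream of Tie1 and 3 times upstream of Apln. At least 1 match was present in 93.4% of 32851 promoters of this length, so the letters alone do not set these genes apart. The HIF cores ACGTG and GCGTG, also searched on both strands, were not among the letters of these 3 windows, and 16.6% and 28.2% of all promoters held them. Of the 7 members, 4 were matched to a promoter entry by symbol. The other one, Esm1, held 3 ETS cores and 1 GCGTG, and it is not printed because its probe set gave no signal above the floor.

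Signals below are the authors' linear intensities after quantile normalization of the arrays, and differences are on the log2 scale with the standard error (SE) of a limma fit to all 24 arrays. For the fit, signals under 135.6, the 20th percentile of the deposited table, were raised to that floor. Probe sets with a low mean over all arrays were removed, which left 15838. A probe set passed at a Benjamini-Hochberg adjusted p under 0.05 over all of them. The filter kept 5 member probe sets of 4 genes: Angpt2, Tek, Apln and both of Aplnr. Tie1, with 9 of 24 arrays at the floor, was fitted separately without the filter, over 22626 probe sets. Angpt1 and Esm1 were under the floor on 24 of 24 arrays and are given as levels only. Levels of different probe sets depend on the probes and are not set against one another.

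**Figure D1:**
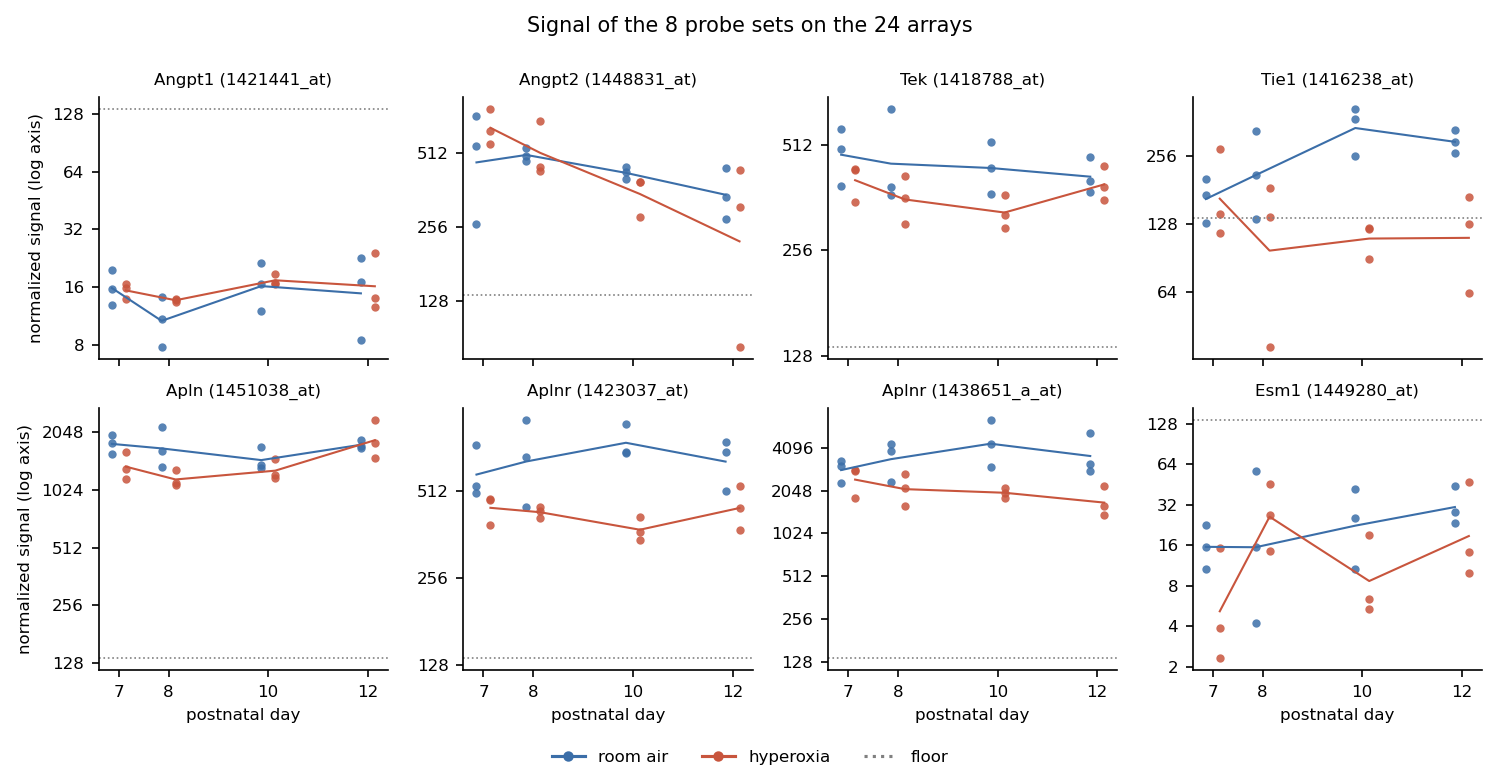
Normalized signal of the 8 member probe sets (vertical axes on a log scale, with a range of its own in each panel) by postnatal day. Each point is 1 array, lines join the geometric means of 3 arrays in room air (blue) or hyperoxia (red), and the dotted line is the floor at 135.6. Both Aplnr panels have all 4 hyperoxia means below all 4 room air means, and the Angpt1 and Esm1 points all lie below the floor.

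Array medians of the deposited intensities ranged from 570.2 to 679.7. Rod and bipolar markers were strongly detected, with Nrl, a rod transcription factor, between 23874 and 35326 on every array. Lens genes varied widely between arrays of a group: the mean log2 signal of 10 lens genes ran from 7.26 to 13.99 in room air day 12. In hyperoxia day 8 it was 7.55 to 8.88, against 8.75 to 13.07 in room air. The mean of 7 pigment epithelium and melanocyte genes spanned 9.25 to 11.21 in room air day 7 and 9.01 to 10.33 in hyperoxia day 7. The 2 arrays farthest from their group means were room air day 8 replicate 1 and hyperoxia day 12 replicate 2.

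The apelin receptor Aplnr was lower in hyperoxia by both of its probe sets. Averaged over the 4 days, 1423037_at fell by 0.62 ± 0.10 (SE), or 1.54-fold (adjusted p = 0.00371), and 1438651_a_at fell by 0.79 ± 0.15, or 1.73-fold (adjusted p = 0.0114). These were 2 of the 5 member probe sets tested, and 1 of the 4 genes, that passed in this comparison, in which 0.474% of all tested probe sets passed as lower. Against the room air mean of the same day, the hyperoxia signal was lower on 12 of 12 arrays by the first probe set and on 11 of 12 by the second. The arrays of a day share that mean, so these are not 12 separate comparisons. In RNA of whole retina, fewer cells that carry the receptor and less Aplnr RNA per cell cannot be told apart.

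By probe set 1438651_a_at, Aplnr signals in room air were 3287, 3042 and 2319 at day 7 and 4334, 3859 and 2355 at day 8. They were 6376, 4359 and 3002 at day 10 and 5214, 2798 and 3146 at day 12. In hyperoxia they were 2855, 2796 and 1828 at day 7, 2678, 2148 and 1597 at day 8, 1966, 1826 and 2145 at day 10, and 2198, 1582 and 1374 at day 12. The groups overlapped at days 7 and 8, and every hyperoxia array lay below every room air array at days 10 and 12. The room air arrays spread most at day 10, where replicate 1 was the highest of all 24.

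By probe set 1423037_at, the room air signals were 534, 738 and 505 at day 7, 898, 670 and 452 at day 8, 874, 694 and 700 at day 10, and 757, 514 and 697 at day 12. The hyperoxia signals were 480, 478 and 392 at day 7, 437, 449 and 413 at day 8, 416, 371 and 346 at day 10, and 532, 375 and 449 at day 12. Here the groups did not overlap at days 7, 8 and 10 and overlapped at day 12. Such separation in the lower direction was seen for 2.92% of tested probe sets at day 7, 5.49% at day 8, 11.9% at day 10 and 6.7% at day 12.

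On single days Aplnr did not pass in the fit of 8 group means to all arrays. The differences of 1423037_at were -0.38, -0.58, -1.0 and -0.53 at days 7, 8, 10 and 12 (SE 0.21 each), with adjusted p = 0.0851 at day 10 as the lowest, which became 0.0379 without the 2 arrays farthest from their group means. Those of 1438651_a_at were -0.22, -0.70, -1.15 and -1.09 (SE 0.30), with adjusted p = 0.177 at day 10. Both probe sets thus had their largest difference after 72 hours. With the replicate number added to the fit as a block, both passed at day 10 (adjusted p = 0.0303 and 0.0154). Over all tested probe sets, replicate numbers did not consistently pair the arrays. The mean log2 signal of 18 endothelial genes, described below, was however lowest in replicate 3 in every group. Whether Aplnr passed at day 10 thus depended on the fit. The differences among the days did not pass an F test (adjusted p = 0.855 and 0.823). Few probe sets passed on single days in the fit without the block: as lower, 0.0631% at day 7, 0.0821% at day 8, 0.0568% at day 10 and 0.0126% at day 12. No member was among them.

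In order of group means, Aplnr by 1438651_a_at ran from hyperoxia day 12 through days 10, 8 and 7, then room air days 7, 8, 12 and 10, with all 7 pairs of neighbours overlapping. By 1423037_at the order was hyperoxia days 10, 8, 12 and 7, then room air days 7, 12, 8 and 10. There the only neighbours that did not overlap were hyperoxia day 7 and room air day 7. The probe sets correlated across the 24 arrays at r = 0.858, a description of arrays that share their RNA.

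The Aplnr result held without any 1 of the 24 arrays: the mean difference stayed between -0.69 and -0.56 for 1423037_at and between -0.86 and -0.72 for 1438651_a_at, with adjusted p of at most 0.0108 and 0.0306. Without all arrays numbered replicate 1 the differences were -0.59 and -0.70 and neither passed (adjusted p = 0.0901 and 0.1). Without those numbered 2 they were -0.61 and -0.80, and neither passed (0.272 and 0.548).

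**Figure D2:**
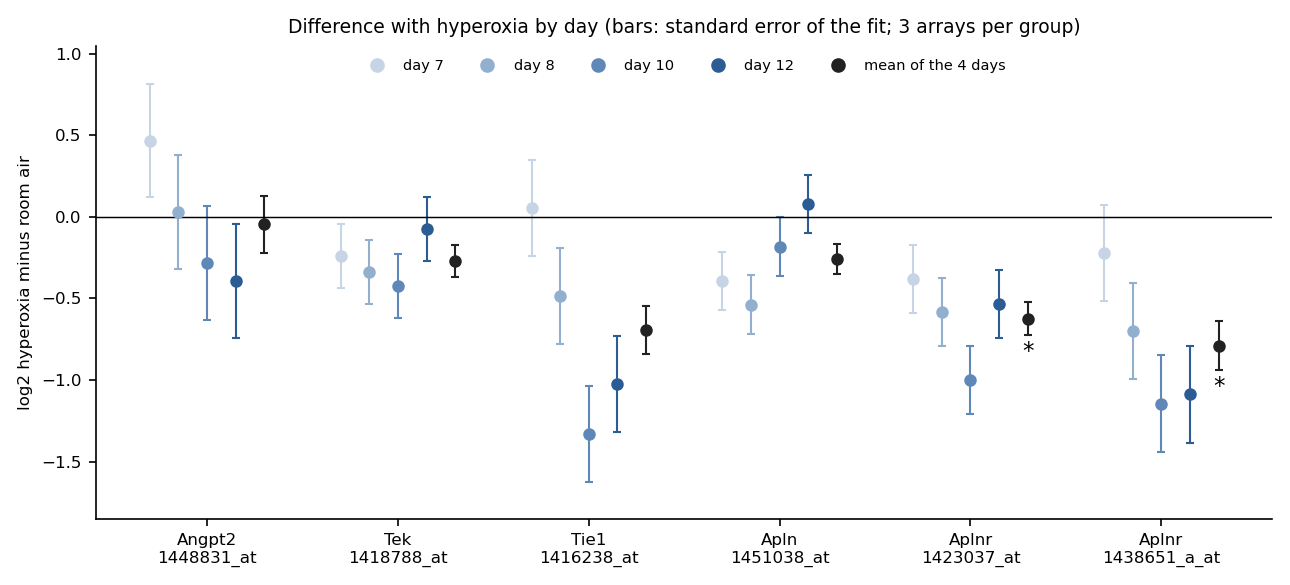
Log2 difference between hyperoxia and room air for 6 member probe sets at each day and averaged over the 4 days. Points are estimates from the limma fit, bars its standard error with 3 arrays per group, and asterisks mark adjusted p under 0.05; Tie1 comes from the fit without the filter. The asterisks stand on the mean differences of Aplnr, -0.62 and -0.79, and on no single day of this fit.

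Apln, the ligand of Aplnr, gave no difference that passed. Its room air signals were 1570, 1994 and 1807 at day 7, 2179, 1639 and 1345 at day 8, 1706, 1340 and 1379 at day 10, and 1692, 1875 and 1727 at day 12. In hyperoxia they were 1614, 1174 and 1315 at day 7, 1115, 1298 and 1083 at day 8, 1230, 1485 and 1180 at day 10, and 1808, 2363 and 1512 at day 12. The groups were apart, with hyperoxia lower, at day 8 only, a separation seen for 5.49% of tested probe sets. The highest of the 24 signals was a hyperoxia array of day 12.

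The Apln differences were -0.39, -0.54, -0.18 and 0.08 at days 7, 8, 10 and 12 (SE 0.18 each). That at day 8 had an unadjusted p of 0.0071 and an adjusted p of 0.899. The mean over the days was -0.26 ± 0.09 (adjusted p = 0.357). From day 7 to day 12 the difference was 0.46 ± 0.18 in hyperoxia (adjusted p = 0.105) and -0.02 ± 0.18 in room air, and neither passed. The F test among the 4 days of hyperoxia, which 8.97% of tested probe sets passed, gave adjusted p = 0.0704, and 0.0438 without hyperoxia day 12 replicate 3. The hyperoxia effect was not shown to differ among the days (F test, adjusted p = 0.813).

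Apln and Aplnr were set beside lists of HIF targets and of endothelial genes. Of 18 tested HIF targets of metabolism, 10 fell in the mean of the days, among them Pfkl, a glycolytic phosphofructokinase (-0.59 ± 0.05), and Bnip3, a mitophagy receptor (-0.63 ± 0.06). The others were the glycolytic enzymes Pfkp, Pgam1 and Tpi1, the adenylate kinase Ak4, the lactate exporter Slc16a3, the oxygen-sensing hydroxylase Egln1, the pyruvate dehydrogenase kinase Pdk1, and Fam162a, with differences from -0.66 to -0.33. The median difference of this list was -0.38, -0.45, -0.27 and -0.09 at days 7, 8, 10 and 12, beside -0.39, -0.54, -0.18 and 0.08 for Apln. Over the 9266 genes tested the median was 0.02, -0.00, -0.02 and -0.01, and 0.529% of genes fell in the mean of the days. Across the 24 arrays Apln correlated with the mean of the HIF list at r = 0.792, and at 0.740 in deviations from the group means. With the endothelial list described next it correlated at 0.533, and at 0.577 in deviations. The arrays share groups, replicate numbers and normalization, and the correlation is a description.

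Of 18 tested endothelial genes, 7 fell in the mean of the days, and 17 had negative differences. Among those that fell were Cldn5, a tight junction protein (-0.66 ± 0.10), Cd93, a surface glycoprotein (-0.87 ± 0.14), Ramp2, a receptor-modifying protein (-0.51 ± 0.08), and Eng, a TGF-beta co-receptor (-0.64 ± 0.11). The others were Cd34, a sialomucin, and the transcription factors Sox18 (-0.64 ± 0.13) and Sox17 (-0.43 ± 0.09). The list's median was -0.20, -0.21, -0.54 and -0.40 at the 4 days, with its lowest point at day 10. For Pecam1, the adhesion molecule, the value was -0.54 ± 0.13, which missed the threshold (adjusted p = 0.0851). Kdr, the main VEGF receptor, was at 0.01 ± 0.08.

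Aplnr correlated with the mean of the endothelial list across the arrays at 0.840 for 1438651_a_at and 0.848 for 1423037_at, and at 0.807 and 0.672 in deviations from group means. With the HIF list the values were 0.570 and 0.714, and 0.627 and 0.462 in deviations. The endothelial mean was lowest in replicate 3 in every group, and deviations from group means keep such a shift. Its share in these correlations was not tested. With the endothelial mean as a covariate the Aplnr differences were -0.13 ± 0.15 (adjusted p = 0.736) and -0.24 ± 0.13 (adjusted p = 0.4), which did not pass. That mean was itself lower in hyperoxia, so this fit takes out part of the hyperoxia difference by its construction and does not say where the Aplnr difference comes from. Among red blood cell genes Alas2, a haem synthesis enzyme, also fell (-1.08 ± 0.19), and the 2-gene mean was 7.08 to 8.67 in hyperoxia against 8.53 to 9.31 in room air; its part in the result was not tested.

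**Figure D3:**
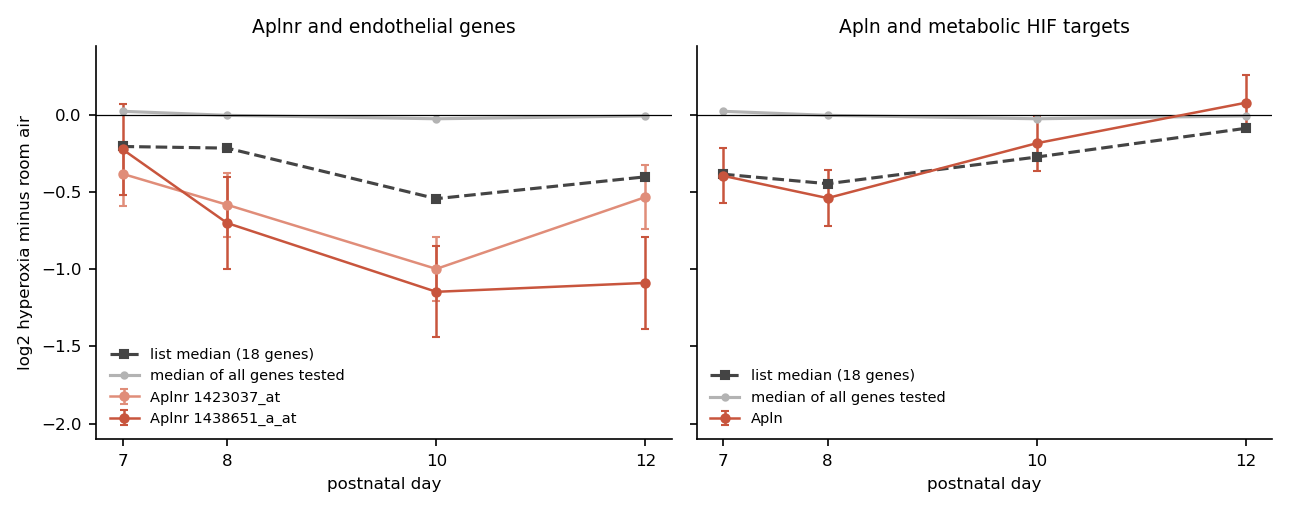
Log2 difference between hyperoxia and room air by postnatal day for Aplnr with 18 endothelial genes (left) and Apln with 18 metabolic HIF targets (right). Solid red lines are the members with the standard error of the fit, dashed lines are list medians and grey lines are the median of 9266 genes. The Aplnr lines and the endothelial median are lowest at day 10, whereas the Apln line and the HIF median are at 0.08 and -0.09 at day 12.

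**Figure D4:**
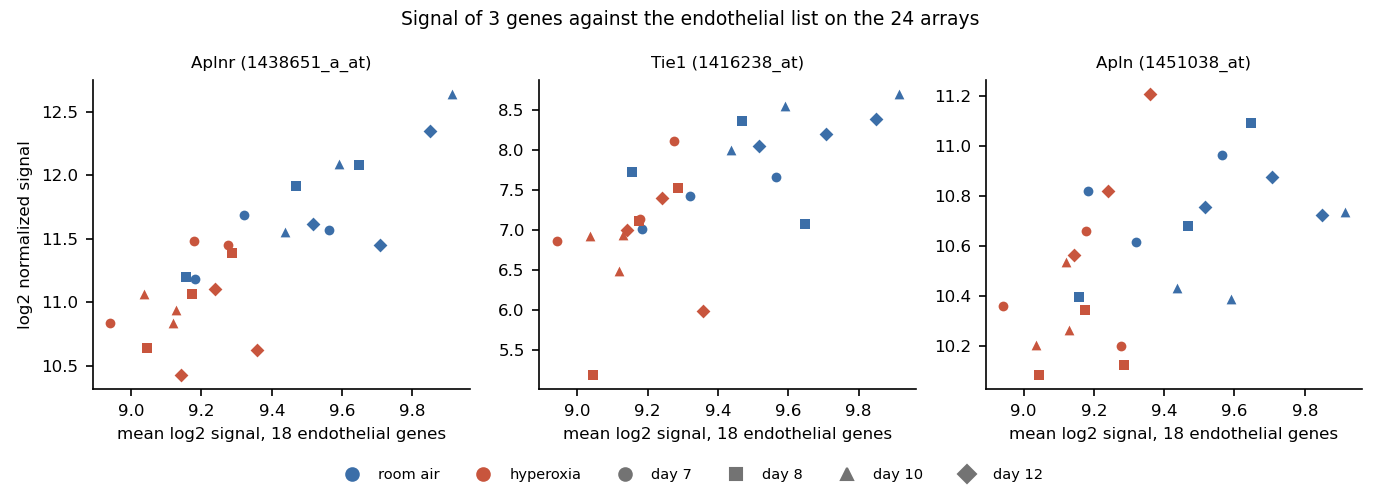
Log2 normalized signal of Aplnr, Tie1 and Apln against the mean log2 signal of 18 endothelial genes, 1 point per array, with colour for oxygen and shape for day. The correlation over 24 arrays was 0.840 for Aplnr, 0.690 for Tie1 and 0.533 for Apln, and every hyperoxia array of day 10 lies in the lower left of the Aplnr panel.

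The genes most like Aplnr over the 24 arrays by Pearson correlation were the endothelial genes Ramp2 (0.873), Cd93 (0.858) and Cd34 (0.855). Those most like Apln were Ptprf, a receptor phosphatase (0.810), Grhpr, a glyoxylate reductase (0.803), and Ak4, a mitochondrial adenylate kinase (0.794). These are rankings over arrays that share treatment groups.

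Among the Tie receptors, Tek gave no difference that passed. Its room air signals were 497, 568 and 391 at day 7, 648, 367 and 389 at day 8, 523, 439 and 370 at day 10, and 471, 405 and 375 at day 12. In hyperoxia they were 432, 352 and 438 at day 7, 417, 304 and 360 at day 8, 368, 296 and 323 at day 10, and 444, 388 and 356 at day 12. Day 10 was the only age with no overlap, and in the deposited intensities the groups overlapped there too. Hyperoxia lay lower at day 10, a separation seen for 11.9% of tested probe sets. The differences were -0.24, -0.34, -0.42 and -0.07 (SE 0.20 each), and the mean was -0.27 ± 0.10 (adjusted p = 0.388). The hyperoxia signal was below the room air mean of the same day on 11 of 12 arrays. As for Aplnr, the arrays of a day share that mean, so these are not 12 separate comparisons. The genes nearest to Tek in correlation were Mlec (0.747), Csnk2a2 (0.707) and Ttc3 (0.688).

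Tie1 lay near the floor. Its room air signals were 172, 202 and 129 at day 7, 135, 329 and 210 at day 8, 414, 374 and 256 at day 10, and 333, 294 and 265 at day 12. In hyperoxia they were 141, 275 and 117 at day 7, 184, 138 and 36.4 at day 8, 123, 89.6 and 121 at day 10, and 168, 63.3 and 128 at day 12. Every room air array lay above every hyperoxia array at days 10 and 12, a separation that 10.6% and 6.1% of unfiltered probe sets also showed in that direction.

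In the fit without the filter the Tie1 differences were 0.05, -0.48, -1.33 and -1.02 at days 7, 8, 10 and 12 (SE 0.29 each). None passed, with adjusted p = 0.116 at day 10, where 0.0751% of unfiltered probe sets passed as lower, and 0.399 at day 12, where 0% did. The mean was -0.70 ± 0.15 (adjusted p = 0.0571), against a background of 0.318% of unfiltered probe sets that passed as lower. Of 24 fits that each left out 1 array, it passed in 3, and the highest adjusted p was 0.129. Those without room air day 8 replicate 1 (-0.78, adjusted p = 0.0122) and room air day 10 replicate 3 (-0.75, adjusted p = 0.03) passed. So did that without hyperoxia day 7 replicate 2 (-0.78, adjusted p = 0.0113). The mean also passed in the deposited scaling (-0.67, adjusted p = 0.0432), and in 6 of 32 alternatives of all kinds. With the endothelial mean as a covariate, itself lower in hyperoxia, it was -0.39 ± 0.23 and did not pass (adjusted p = 0.511). All 3 hyperoxia arrays of day 10 and 2 of 3 of day 12 were at the floor. The differences at days 10 and 12 are therefore smaller than in the normalized signals before the floor. The floor also removed spread, on which the SE and p-values rest. The standard deviation of hyperoxia day 10 became 0, and that of hyperoxia day 8 was 0.25, against 1.25 before the floor. From day 7 to day 12 Tie1 was at 0.82 ± 0.29 in room air (adjusted p = 0.104), where the later arrays were all higher, as 24.4% of unfiltered probe sets were apart in either direction, and at -0.26 ± 0.29 in hyperoxia (adjusted p = 0.763).

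Of the angiopoietins, Angpt2 was detected, and it was lower at day 12 than at day 7 of hyperoxia, a call that rested on single arrays. Its signals in hyperoxia were 629, 772 and 558 at day 7, 431, 450 and 692 at day 8, 388, 388 and 280 at day 10, and 308, 83.1 and 434 at day 12. All day 12 arrays lay below all day 7 arrays, a separation seen for 14.8% of tested probe sets. From day 7 to day 12 it fell by 1.30 ± 0.35, or 2.46-fold (adjusted p = 0.0173), 1 of 5 member probe sets in a comparison in which 6.64% of tested probe sets passed as lower. Without hyperoxia day 12 replicate 2, whose 83.1 is under the floor, the difference was -0.82 (adjusted p = 0.104), and without hyperoxia day 7 replicate 2 it was -1.17 (adjusted p = 0.0658). Without all arrays numbered replicate 2 it was -0.70 (adjusted p = 0.312), and without those numbered 1 it was -1.44 (adjusted p = 0.128). The F test among the 4 days of hyperoxia did not pass for Angpt2 (adjusted p = 0.0655), but did without hyperoxia day 12 replicate 3 (adjusted p = 0.0225).

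In room air Angpt2 signals were 544, 720 and 262 at day 7, 496, 476 and 537 at day 8, 446, 428 and 400 at day 10, and 444, 337 and 276 at day 12. These groups overlapped between days 7 and 12, and the difference of -0.44 ± 0.35 did not pass (adjusted p = 0.477). In this comparison 12.3% of tested probe sets passed in either direction, and no member did. The difference between the 2 age courses was -0.86 ± 0.49 (adjusted p = 0.823), so the change with age was not shown to differ between hyperoxia and room air. In that test 0 of 15838 probe sets passed by limma, and 983 had an unadjusted p under 0.05.

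Hyperoxia against room air gave Angpt2 differences of 0.47, 0.03, -0.29 and -0.39 at days 7, 8, 10 and 12 (SE 0.35 each), none of which passed. The mean of -0.05 ± 0.17 (adjusted p = 0.969) combined positive differences at days 7 and 8 with negative ones at days 10 and 12. The groups overlapped at every age except day 10, and there too in the deposited intensities. At day 10 the hyperoxia arrays were lower, a separation seen for 11.9% of tested probe sets. Angpt2 correlated with the endothelial list at -0.039 over the 24 arrays. Its nearest genes in correlation were Kdm1a, a histone demethylase (0.821), Csnk2a1, a casein kinase subunit (0.816), and Psma6, a proteasome subunit (0.787).

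Angpt1 was not above the floor on any array, and its deposited intensities ran from 9.1 to 28.3 with a median of 14.35. Esm1 likewise ran from 3.4 to 66.3 with a median of 16.65. These signals are bounded only by the floor, so no direction is given for either gene.

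None of the tested partner genes of the pathway passed between hyperoxia and room air in the mean of the days. The list of 28 partners, which holds further ligands, matrix, membrane and intracellular proteins, had 26 genes on the array and 23 tested, of which 0 rose and 0 fell in the mean of the days, with a median of -0.04. The 4 with the lowest p were Foxo1, a transcription factor that Tek signalling restrains (-0.25 ± 0.11), Gnaq, a G protein subunit (0.26 ± 0.11), Rasa1, a Ras GTPase activator (0.14 ± 0.06), and Itgav, an integrin chain (-0.15 ± 0.08). Their unadjusted p-values in limma were 0.0328, 0.0369, 0.0479 and 0.0701, and in the same fit 1415 of 15838 probe sets had an unadjusted p under 0.05. From day 7 to day 12, Itgav rose and Gnai3, a G protein subunit, fell in room air (0.59 ± 0.16 and -0.50 ± 0.09) and in hyperoxia (0.85 ± 0.16 and -0.58 ± 0.09). Akt1, a kinase downstream of Tek, fell in room air (-0.43 ± 0.12). Of the 23 tested partners, 1 thus rose and 2 fell with age in room air, and 1 rose and 1 fell in hyperoxia. Over all tested probe sets 12.3% passed in either direction in room air and 12.6% in hyperoxia, so these age changes do not set the partners apart.

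The next counts are also for the mean of the days, in which 0.529% of the 9266 genes tested fell. Among 7 tested VEGF genes, 1 fell: Vegfa, the growth factor itself, by 0.60 ± 0.06 (adjusted p = 2.8e-05). Of 14 tested tip cell genes other than the members, 2 fell: Cd34 (-0.52 ± 0.10), and Col4a1, a basement membrane collagen (-0.60 ± 0.13). Cd34 was already counted among the endothelial genes that fell. The tip cell median was -0.22. Of 7 pericyte and smooth muscle genes, Rgs5, a pericyte regulator of G protein signalling, fell by 0.49 ± 0.07, and the median was -0.18.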

How the data were processed

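Retinal RNA from 24 samples was measured on 1 array each. Values are linear intensities deposited by the authors, who had scaled the arrays: means after trimming 2% from both tails ran from 1500.35 to 1500.4. The authors' software is not given in the sources used here. Members, gene lists and tests were chosen with earlier results of these data known. Intensities were taken to log2, quantile normalized (array medians spanned 0.253), floored at the 20th percentile of the table (135.6) and filtered at the 30th percentile of the means, leaving out 64 control probe sets. The floor compresses differences and spread near it. One limma fit (version 3.58.1, R 4.3.3) of 8 group means, with 16 residual and 3.54 prior degrees of freedom, gave all contrasts, with Benjamini-Hochberg adjustment over 15838 probe sets. It was tested on simulated data first. Symbols came from the platform annotation supplied with the series, and 20380 probe sets had 1 symbol. Named genes were all members, from each list of vessel, pathway or HIF genes up to 4 with the lowest p in the mean of the 4 days (brightest probe set) and any that passed there, and the 3 genes most correlated with each member that passed the filter. Nrl, Pecam1, Kdr, Alas2, Gnai3 and Akt1 were chosen after their values were seen. Lists stand for 1 probe set per gene. Alternatives covered scaling, floor, filter, prior, the replicate block, tissue lists as covariates and left-out arrays. The number of arrays limits the precision. Plots used matplotlib 3.10.9 (Python 3.11.15).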

Additional observations from a re-analysis of the deposited data

How the results depend on the processing

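Over 1609 alternative values for the member results, 1582 kept their side of the threshold, 12 no longer passed and 15 newly passed. Most of these values were of results that had not passed at first, so the pooled count says little about those that had. Aplnr in the mean of the days passed in 33 of 37 alternatives by 1423037_at and in 36 of 39 by 1438651_a_at. Angpt2 from day 7 to day 12 in hyperoxia passed in 15 of 20. Of the 1084 values with a direction, 57 turned sign, all of results that did not pass at first, such as 8 of 38 for Angpt2 in the mean of the days (-0.27 to 0.12), and 0 of results that did. The count of 2 members passing in the mean of the 4 days (both Aplnr probe sets) became 1 with the filter at the 50th percentile, where fewer members were tested, 1 with 1 probe set per gene, which leaves 1 for Aplnr, and 0 with the endothelial mean as covariate. It ranged from 0 to 2 when arrays were left out: it was 0 without replicates 1 or 2 in all groups and 1 without replicates 3 (adjusted p = 0.0644 for 1423037_at). At day 10 the count of 0 became 1 without the 2 arrays farthest from their groups. For day 12 against day 7 in hyperoxia the count of 1 (Angpt2) became 0 with the filter at the 50th percentile and 0 without the 2 farthest arrays, and 2 with the endothelial covariate. It ranged from 0 to 1 with arrays left out. For any difference among the days of hyperoxia the count of 0 became 1 with an intensity trend and robust prior (Angpt2) and ranged from 0 to 2 with arrays left out, 2 being without hyperoxia day 12 replicate 3. The causes were not tested where none is named.

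Over all tested probe sets, replicate numbers did not consistently pair the samples. In deviations from the group means, 5 of 12 same-numbered pairs correlated above 0.1, and 11 of 24 arrays were closest to their own number. The endothelial mean did follow the number in part, as it was lowest in replicate 3 in every group. These counts therefore do not settle whether the block belongs in the fit for Aplnr. At day 12 alone all 3 pairs correlated above 0.1 (0.234, 0.390 and 0.445). There the replicate block changed no member's call (adjusted p = 0.0516 for Aplnr 1438651_a_at). With the replicate block, 2 members passed at day 10 (Aplnr, adjusted p = 0.0303 and 0.0154) and 1 in the F test among the days of hyperoxia (Apln, adjusted p = 0.0468), and no other count moved. Tie1 without the filter also passed in the mean of the days with the block (adjusted p = 0.0336). Tie1, fitted without the filter, passed in the mean of the days in 6 of 32 alternatives, a combination chosen after seeing the data.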
